A study of Mus musculus with 16 samples.

Results

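The interleukin-6 family was followed in the sciatic nerve of WldS mice and C57BL/6 mice through 9 genes. These were 6 cytokines (Il6, Lif, Clcf1, Cntf, Il11 and Osm) and 3 receptor subunits (Il6st, Lifr and Osmr). A member was measured by array probe sets that the platform's probe table listed with that gene alone, and where several did so the brightest on average across the 16 arrays gave its value. By this rule 8 of the 9 genes had a value, out of 18193 genes with a value in the whole series. Of these 8, 7 were bright enough to be tested, among 14545 genes tested in all. Il6 lay below the level used to leave out dim genes (log2 5.37, the 30th percentile of probe sets). The only probe set for Cntf is listed with 2 other genes as well, so no level is given for Cntf.

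The groups were mutant C57BL/6 OlaHsd-Wlds mice, called WldS here, and wild-type C57BL/6 mice, both 8 to 12 weeks old, with 56 mice per strain. WldS is a spontaneous mutation whose product contains the enzyme Nmnat1 and which delays the breakdown of cut axons. The left sciatic nerve was crushed in all mice except the uninjured ones (day 0), and a 4 mm piece of the distal stump, from 1 to 5 mm beyond the crush, was taken at day 3, 7 or 14. RNA came from stumps pooled within a group, and each of the 8 groups of strain and day was read on 2 arrays that the labels call biological replicates. The sources used here give neither the number of mice in a pool nor whether both replicates had pools of their own. Hence n = 2 arrays per group throughout, and standard errors and p-values describe only the spread between these arrays, which may be technical.

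Cytokines of this family signal through receptor complexes that share the subunit gp130, the product of Il6st. Gp130 activates Jak kinases and the transcription factor Stat3, and Stat3 in turn switches on the inhibitor Socs3, which limits the signal. Lif, Clcf1 and Cntf use gp130 together with the Lif receptor, whereas interleukin-6 and interleukin-11 use gp130 pairs with their own binding subunits, and mouse Osm uses gp130 with the subunit encoded by Osmr. In injured peripheral nerve, Lif and interleukin-6 are known as early signals made by Schwann cells and other cells near the lesion, and Cntf is known as a product of myelinating Schwann cells.

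The promoters of 3 cytokine genes and of Socs3 are shown as examples of the motif matches in the family's ligands and in the family's feedback inhibitor. Each line gives the 250 bases before the annotated start in RefSeq's GRCm38.p6 table, 5′ to 3′ on the gene's strand, and capitals mark the match. In the cytokine genes the match is to the AP-1 motif TGANTCA, and in Socs3 to the looser Stat3 motif TTCNNNGAA.
Il6 (chr5:30012864-30013113, plus strand): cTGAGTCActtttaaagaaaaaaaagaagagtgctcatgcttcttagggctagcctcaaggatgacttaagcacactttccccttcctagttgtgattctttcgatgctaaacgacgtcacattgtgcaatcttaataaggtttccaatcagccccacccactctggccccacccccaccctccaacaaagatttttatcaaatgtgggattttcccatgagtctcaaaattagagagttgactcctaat
Lif (chr11:4257318-4257567, plus strand): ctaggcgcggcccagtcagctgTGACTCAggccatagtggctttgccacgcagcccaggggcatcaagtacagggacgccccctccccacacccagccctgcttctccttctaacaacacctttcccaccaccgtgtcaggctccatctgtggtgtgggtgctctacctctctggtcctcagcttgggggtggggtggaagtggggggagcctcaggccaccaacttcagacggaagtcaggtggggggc
Il11 (chr7:4778142-4778391, minus strand): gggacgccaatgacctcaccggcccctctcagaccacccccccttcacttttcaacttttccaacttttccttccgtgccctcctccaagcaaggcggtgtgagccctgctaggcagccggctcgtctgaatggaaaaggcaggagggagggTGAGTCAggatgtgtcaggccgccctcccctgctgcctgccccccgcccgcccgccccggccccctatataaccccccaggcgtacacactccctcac
Socs3 (chr11:117969367-117969616, minus strand): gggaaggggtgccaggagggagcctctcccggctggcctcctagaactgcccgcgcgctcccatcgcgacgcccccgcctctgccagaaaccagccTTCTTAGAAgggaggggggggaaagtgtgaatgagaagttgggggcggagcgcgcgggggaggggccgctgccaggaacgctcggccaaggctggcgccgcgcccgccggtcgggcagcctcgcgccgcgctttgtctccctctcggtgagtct
The table held 9 windows of 300 bases for 7 of the members, with none for Clcf1 and Osm. The AP-1 motif was in 5 of the 9 windows, against 7.81% of all 32851 windows in the table. It began at position -249 in Il6, -228 in Lif, -98 in 1 of the 2 windows of Il11, -245 in Cntf and 4 in Osmr, counted from the start site. The Stat3 motif TTCCNGGAA was in 0 of the 9 windows (1.15% of all windows), and so was TTCNNNGAA (8.3% of all windows). Both strands were searched, and every TTCCNGGAA is also a TTCNNNGAA. Among 21 windows of 17 Stat3-responsive genes that changed on at least 1 day, TTCCNGGAA was found in Icam1 (position -42) and Gfap (position -2), and TTCNNNGAA also in Socs3 (position -154). A match is a description of the letters and shows no binding.

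All 16 arrays had medians between log2 6.42 and 6.49. Nmnat1 separated the strains on every day, with WldS minus C57BL/6 differences of 2.69 to 3.40 on the log2 scale. A 3′/5′ index of the Actb and Gapdh control probe sets, which rises as RNA degrades, stood out in 2 WldS arrays, at 3.81 in day 0 replicate 1 and at 3.23 in day 14 replicate 2; the other 14 arrays had 1.63 to 2.46. In these pieces of whole nerve, fewer cells of a type and less RNA per cell cannot be told apart. A gene is said to have risen or fallen where limma's Benjamini-Hochberg adjusted p over all tested genes was below 0.05, and ± is the standard error of a log2 difference.

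Clcf1, which encodes cardiotrophin-like cytokine factor 1, a ligand of the Cntf receptor complex, rose in all 6 comparisons with day 0, and its difference was larger than that of the other 6 tested members in each of them. In C57BL/6 nerves it peaked at day 3, and in WldS nerves it rose less by then and was still high at day 14. In WldS nerves the log2 signals were 5.84 and 5.59 at day 0, 6.68 and 6.84 at day 3, 7.28 and 7.57 at day 7, and 7.08 and 7.51 at day 14. C57BL/6 nerves had 6.04 and 5.75 at day 0, 10.37 and 10.27 at day 3, 7.59 and 7.52 at day 7, and 6.74 and 6.67 at day 14. Both C57BL/6 day 3 arrays stood above every other array of the series, and no injured array of either strain was as low as any day 0 array of its own strain.

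The rise of Clcf1 in WldS nerves was 1.05 ± 0.16 at day 3 (limma, adjusted p = 0.000138), 1.71 ± 0.16 at day 7 (adjusted p = 2.82e-06) and 1.58 ± 0.16 at day 14 (adjusted p = 7.85e-06). The C57BL/6 rise was 4.43 ± 0.16 at day 3, a 21.5-fold higher signal (limma, adjusted p = 1e-10). It was 1.66 ± 0.16 at day 7 (adjusted p = 1.69e-06) and 0.82 ± 0.16 at day 14 (adjusted p = 0.00114). Between successive days, Clcf1 fell by 2.76 in C57BL/6 nerves at day 7 relative to day 3 (limma, adjusted p = 1.27e-07) and by another 0.85 at day 14 relative to day 7 (adjusted p = 0.0046). The WldS signal rose by 0.66 at day 7 relative to day 3 (limma, adjusted p = 0.021). Clcf1 was the 1 member of 7 that passed in this last comparison, where 6.62% of genes passed, and also the 1 member that passed between day 7 and day 3 in C57BL/6 nerves, where 20.3% did. In that C57BL/6 comparison Il11 was at -0.44 (limma, adjusted p = 0.051) and passed in 8 of 15 alternatives, and Lif was at -0.32 (adjusted p = 0.0639) and passed in 2 of 16. At day 14 relative to day 7, 0 members passed in WldS nerves (5.23% of genes) and 2 (Clcf1 and Lif) in C57BL/6 nerves (5.27% of genes). The WldS rise of Clcf1 between day 3 and day 7 did not pass without WldS day 3 replicate 1 (0.58, adjusted p = 0.219), WldS day 3 replicate 2 (0.74, adjusted p = 0.054) or WldS day 7 replicate 2 (0.52, adjusted p = 0.111), and the day 14 fall in C57BL/6 nerves did not pass without C57BL/6 day 7 replicate 1 (-0.82, adjusted p = 0.062) or day 14 replicate 2 (-0.81, adjusted p = 0.0525).

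All 3 probe sets of Clcf1 gave the same order of groups at day 3, with different sizes. The day 3 differences from day 0 were 1.05, 1.83 and 0.18 in WldS nerves, against 4.43, 5.62 and 2.61 in C57BL/6 nerves, from the brightest to the dimmest probe set. The second and the third probe set lay below the dim level at day 0 in both strains, so the size of their differences is uncertain, and the third was below it at day 3 in WldS nerves as well. At day 14 the second probe set had a difference of 3.11 in WldS nerves and 1.55 in C57BL/6 nerves. The third had 0.40 in WldS nerves and 0.23 in C57BL/6 nerves.

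**Figure D1:**
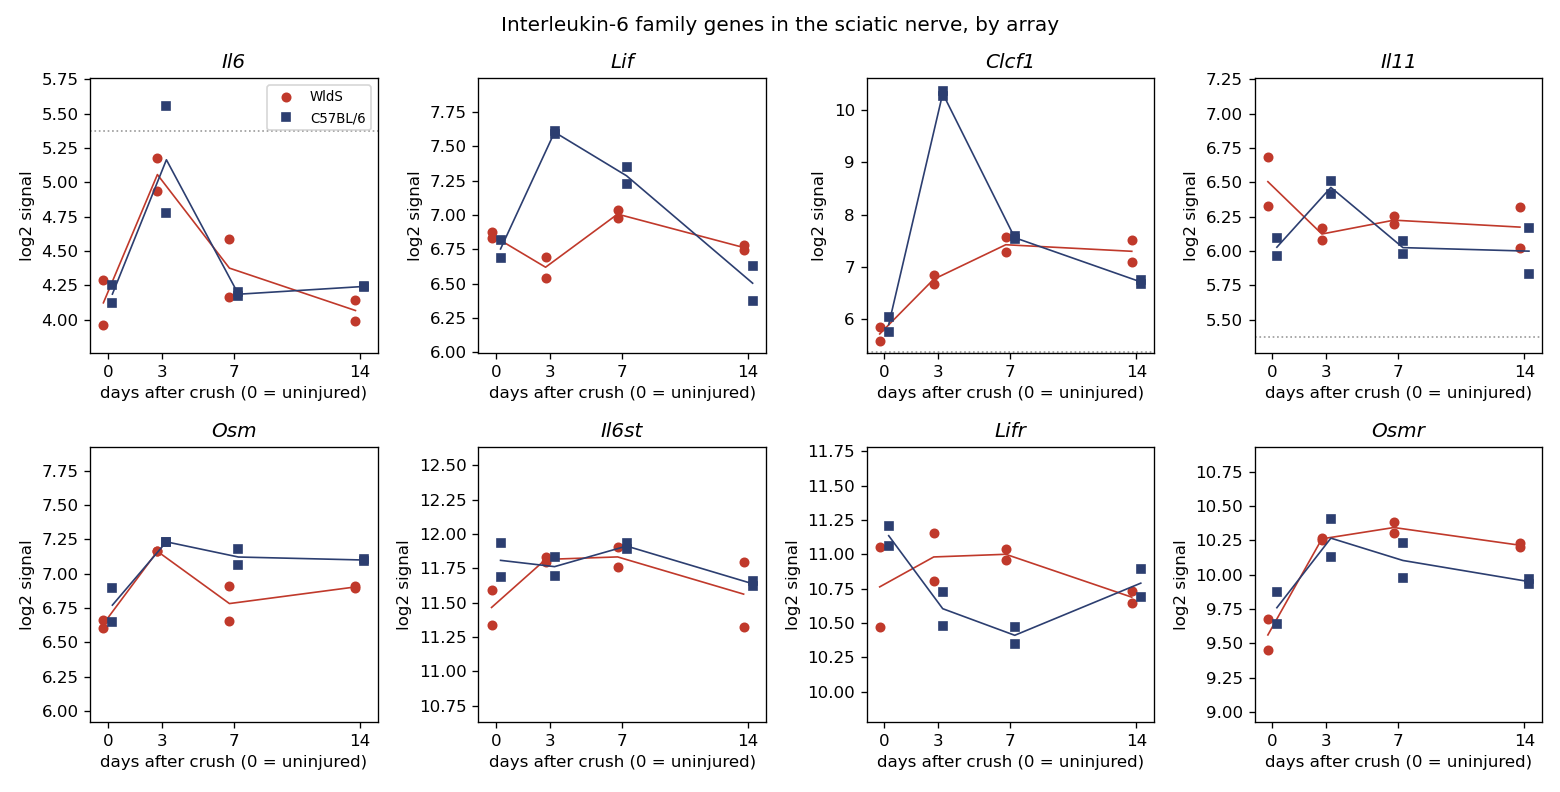
Log2 signal (vertical axis) of 8 interleukin-6 family genes against days after crush, with day 0 the uninjured nerve. Points are single arrays (WldS circles, C57BL/6 squares), lines join group means of 2 arrays, and the dotted line is the level below which genes were not tested (5.37). The C57BL/6 day 3 arrays of Clcf1 reach 10.37 and 10.27, and those of WldS 6.68 and 6.84; the vertical scales differ between genes.

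Lif, the ligand that gives the leukemia inhibitory factor receptor its name, rose in C57BL/6 nerves at day 3 and day 7, and passed the test on no day in WldS nerves. Its log2 signals in WldS nerves were 6.83 and 6.87 at day 0, 6.70 and 6.54 at day 3, 6.98 and 7.04 at day 7, and 6.74 and 6.78 at day 14. The C57BL/6 signals were 6.69 and 6.82 at day 0, 7.61 and 7.59 at day 3, 7.22 and 7.35 at day 7, and 6.63 and 6.37 at day 14. The 4 C57BL/6 arrays of day 3 and day 7 were the highest of the series, and the WldS arrays lay between 6.54 and 7.04 over all days. The C57BL/6 rise was 0.85 ± 0.11 at day 3 (limma, adjusted p = 3.22e-05) and 0.53 ± 0.11 at day 7 (adjusted p = 0.00216), and Lif then fell by 0.78 at day 14 relative to day 7 (adjusted p = 0.000752). In WldS nerves the differences were -0.23, 0.15 and -0.09 at day 3, 7 and 14. Lif has a second probe set, with a mean below the dim level (4.90), on which C57BL/6 day 3 minus day 0 was -0.06.

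Osm, oncostatin M, a cytokine known from macrophages, neutrophils and other leukocytes, rose at day 3 in both strains. Its log2 signals in WldS nerves were 6.66 and 6.61 at day 0, 7.16 and 7.16 at day 3, 6.65 and 6.91 at day 7, and 6.91 and 6.90 at day 14. C57BL/6 nerves gave 6.89 and 6.65 at day 0, 7.23 and 7.23 at day 3, 7.07 and 7.18 at day 7, and 7.11 and 7.09 at day 14. The day 3 arrays were above the day 0 arrays in each strain, and the WldS day 7 arrays overlapped those of day 0. The rise at day 3 was 0.53 ± 0.12 in WldS nerves (limma, adjusted p = 0.00274) and 0.46 ± 0.12 in C57BL/6 nerves (adjusted p = 0.00534). Osm also passed in C57BL/6 nerves at day 7 (0.35 ± 0.12, limma, adjusted p = 0.0298) and day 14 (0.33 ± 0.12, adjusted p = 0.0424). The WldS differences were 0.15 at day 7 (limma, adjusted p = 0.35) and 0.27 at day 14 (adjusted p = 0.12). The change of Osm after crush did not differ between the strains by the interaction test on any day. Without C57BL/6 day 0 replicate 2 none of the 3 C57BL/6 differences passed, with values of 0.34 (adjusted p = 0.0639), 0.23 (adjusted p = 0.225) and 0.21 (adjusted p = 0.28) at day 3, 7 and 14. The day 7 call also ended without C57BL/6 day 7 replicate 1 (0.41, adjusted p = 0.0648) or replicate 2 (0.29, adjusted p = 0.181), and the day 14 call without C57BL/6 day 14 replicate 1 (0.32, adjusted p = 0.153) or replicate 2 (0.34, adjusted p = 0.123).

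Il11, interleukin-11, had a small rise in C57BL/6 nerves at day 3 and no change that passed in WldS nerves. Its log2 signals were 6.68 and 6.33 at day 0, 6.17 and 6.08 at day 3, 6.20 and 6.25 at day 7, and 6.02 and 6.32 at day 14 in WldS nerves. They were 5.96 and 6.09 at day 0, 6.41 and 6.51 at day 3, 6.07 and 5.98 at day 7, and 6.17 and 5.83 at day 14 in C57BL/6 nerves. The highest Il11 value of the series was that of WldS day 0 replicate 1, the array with the highest 3′/5′ index; its part in the result was not tested beyond leaving it out. The C57BL/6 day 3 rise of 0.44 ± 0.15 (limma, adjusted p = 0.0292) did not pass when any 1 of its 4 arrays was left out: 0.37 without C57BL/6 day 0 replicate 1 or 0.50 without replicate 2, and 0.48 or 0.39 without C57BL/6 day 3 replicate 1 or 2, with adjusted p of 0.0512 to 0.164.

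Il6, interleukin-6 itself, was dim throughout, with its highest values at day 3 in both strains. Its log2 signals in WldS nerves were 4.29 and 3.96 at day 0, 5.18 and 4.94 at day 3, 4.17 and 4.59 at day 7, and 3.99 and 4.14 at day 14. Those of C57BL/6 nerves were 4.25 and 4.12 at day 0, 5.56 and 4.77 at day 3, 4.17 and 4.20 at day 7, and 4.24 and 4.25 at day 14. Of the 16 arrays, C57BL/6 day 3 replicate 1 was the 1 array above the dim level, and the day 3 arrays were above the day 0 arrays in each strain. With no filter on dim genes, Il6 passed at day 3 in WldS nerves (0.93 ± 0.21, limma, adjusted p = 0.00424, where 29.7% of all genes passed) and in C57BL/6 nerves (0.98 ± 0.21, adjusted p = 0.00238, where 33.9% passed). Without WldS day 3 replicate 1 the WldS difference was 0.81 (limma, adjusted p = 0.0508). WldS minus C57BL/6 for Il6 at day 3 was -0.11 ± 0.21 (limma without the filter, adjusted p = 0.895).

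Osmr, the subunit that pairs with gp130 to bind oncostatin M, rose on every injured day in WldS nerves and at day 3 in C57BL/6 nerves. Its log2 signals were 9.67 and 9.45 at day 0, 10.26 and 10.27 at day 3, 10.31 and 10.38 at day 7, and 10.20 and 10.23 at day 14 in WldS nerves. They were 9.88 and 9.64 at day 0, 10.41 and 10.13 at day 3, 10.23 and 9.97 at day 7, and 9.97 and 9.93 at day 14 in C57BL/6 nerves. Every injured array was above every day 0 array of the same strain. The WldS rise was 0.70 ± 0.13 at day 3 (limma, adjusted p = 0.000951), 0.78 ± 0.13 at day 7 (adjusted p = 0.000494) and 0.65 ± 0.13 at day 14 (adjusted p = 0.00308). The C57BL/6 difference was 0.51 ± 0.13 at day 3 (limma, adjusted p = 0.00695), and it was 0.34 at day 7 (adjusted p = 0.0589) and 0.19 at day 14, which did not pass. The C57BL/6 day 3 call ended without C57BL/6 day 0 replicate 2 (0.39, adjusted p = 0.0736) or day 3 replicate 1 (0.37, adjusted p = 0.0889). On the second of the 3 Osmr probe sets, with a mean of 5.49 close to the dim level, the day 3 differences were 0.40 in WldS nerves (adjusted p = 0.0978) and 0.28 in C57BL/6 nerves (adjusted p = 0.249). The WldS day 14 call was lost on that probe set (0.21, limma, adjusted p = 0.482), with the mean of all probe sets (0.25, adjusted p = 0.101) and with only the groups compared in the fit (0.65, adjusted p = 0.0551).

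Lifr encodes the receptor subunit that Lif, Clcf1 and Cntf use together with gp130. On its brightest probe set it fell in C57BL/6 nerves at day 3 and day 7, and passed on no day in WldS nerves. Its log2 signals were 10.47 and 11.05 at day 0, 11.15 and 10.81 at day 3, 11.04 and 10.96 at day 7, and 10.73 and 10.64 at day 14 in WldS nerves. They were 11.21 and 11.06 at day 0, 10.48 and 10.73 at day 3, 10.35 and 10.47 at day 7, and 10.89 and 10.69 at day 14 in C57BL/6 nerves. The lower of the 2 WldS day 0 values came from replicate 1, the array with the highest 3′/5′ index, and the injured WldS arrays overlapped them on each day. Lifr in C57BL/6 nerves fell by 0.53 ± 0.17 at day 3 (limma, adjusted p = 0.0246) and by 0.73 ± 0.17 at day 7 (adjusted p = 0.00479), and its difference at day 14 was -0.35. The day 3 call ended without C57BL/6 day 0 replicate 1 (-0.46, adjusted p = 0.144) or day 3 replicate 1 (-0.41, adjusted p = 0.17). Lifr has 2 dimmer probe sets with means of 5.81 and 5.80, and they did not follow the brightest. At day 3, C57BL/6 nerves differed from day 0 by -0.25 on the first of these and by 1.00 on the other, where the WldS difference was 1.06. With the mean of all 3 probe sets as the gene's value, the C57BL/6 differences were 0.07 at day 3 (limma, adjusted p = 0.722) and -0.35 at day 7 (adjusted p = 0.0711), so the fall of Lifr rests on its brightest probe set. With that same mean, Lifr passed as a rise in WldS nerves at day 3, and did not pass there at day 7 or day 14.

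Il6st, which encodes the shared subunit gp130, gave a different account on each of its probe sets. On the brightest one its log2 signals in WldS nerves were 11.34 and 11.59 at day 0, 11.84 and 11.79 at day 3, 11.91 and 11.76 at day 7, and 11.80 and 11.33 at day 14. The C57BL/6 values were 11.93 and 11.68 at day 0, 11.69 and 11.83 at day 3, 11.93 and 11.89 at day 7, and 11.66 and 11.62 at day 14. No comparison with day 0 passed on this probe set, and the largest difference was 0.37 in WldS nerves at day 7 (limma, adjusted p = 0.073).

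The 3 dimmer Il6st probe sets had higher values at day 3 and day 7 than at day 0 in both strains, by amounts that differed between them, and the dimmest was at -0.14 at day 14 in C57BL/6 nerves. At day 7 the 4 probe sets, in order of brightness, had differences from day 0 of 0.37, 0.72, 1.60 and 0.41 in WldS nerves, against 0.10, 1.22, 1.37 and 0.22 in C57BL/6 nerves. At day 3 they were 0.35, 0.64, 1.22 and 0.81 in WldS nerves, against -0.05, 0.83, 0.65 and 0.09 in C57BL/6 nerves. With the second probe set as the gene's value, Il6st rose in C57BL/6 nerves at day 3 (0.83, limma, adjusted p = 0.0273) and day 7 (1.22). It passed on no day in WldS nerves with that probe set. With the mean of all 4 probe sets, Il6st rose in WldS nerves at day 3 (0.75) and day 7 (0.77). The mean also passed as a rise at day 7 in C57BL/6 nerves, but not at day 3. Which transcripts each probe set reads was not tested, and a single level of Il6st cannot be taken from the brightest probe set alone.

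**Figure D2:**
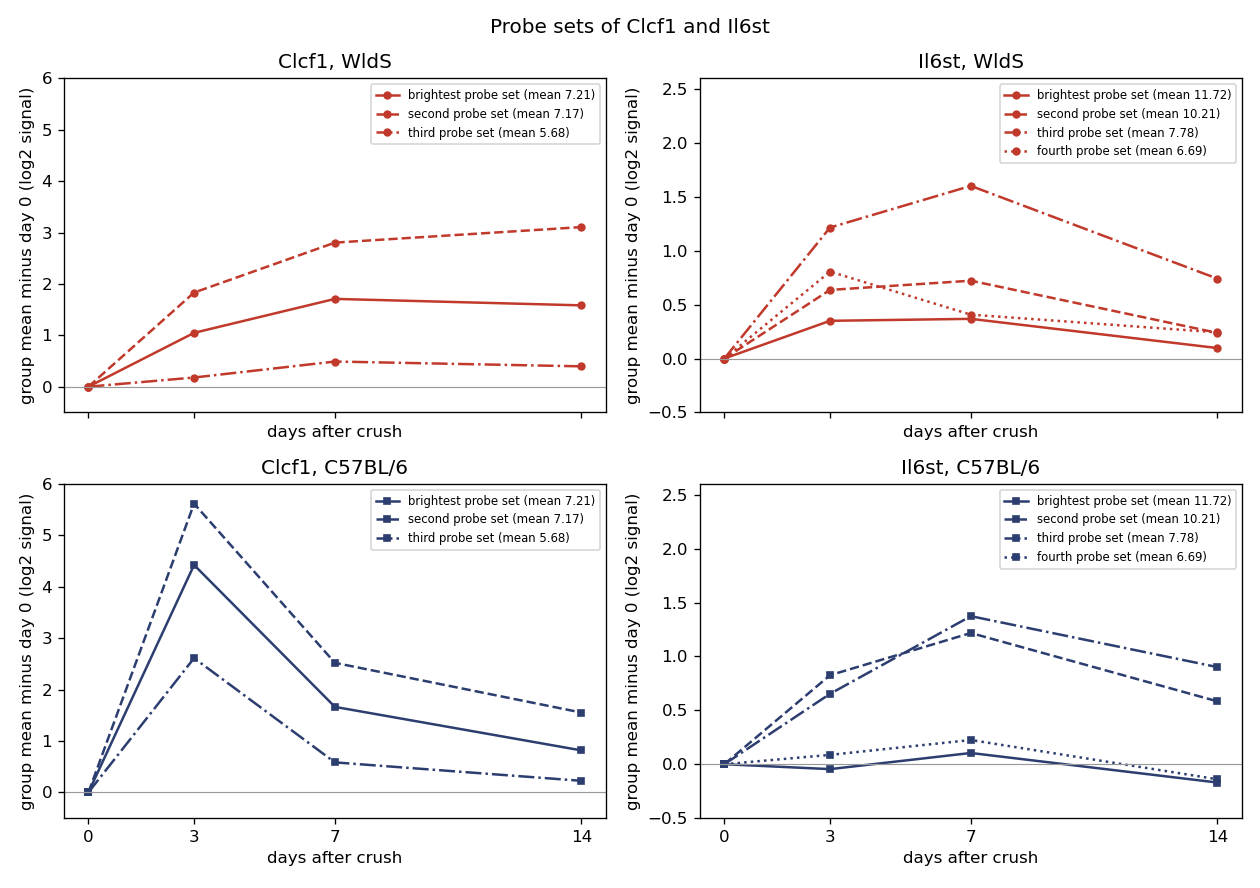
Group mean minus day 0 (log2 signal, vertical axis) against days after crush, for each probe set of Clcf1 (left) and Il6st (right), in WldS nerves (upper) and C57BL/6 nerves (lower). All 3 Clcf1 probe sets are highest at day 3 in C57BL/6 nerves (4.43, 5.62 and 2.61), while the Il6st probe sets at day 7 in C57BL/6 nerves spread between 0.10 and 1.37.

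Over the family as a whole, Clcf1, Osm and Osmr rose at day 3 in both strains. Of the 7 tested members, 3 passed in WldS nerves at day 3, all of them higher, where 36.0% of all tested genes passed in either direction. At day 7 and at day 14, 2 of the 7 passed (Clcf1 and Osmr, both higher), where 35.2% and 21.3% of genes passed. The C57BL/6 count was 6 of 7 at day 3, 5 higher and 1 (Lifr) lower, where 41.0% of genes passed. It was 4 at day 7, with Clcf1, Lif and Osm higher and Lifr lower, where 36.1% passed, and 2 at day 14 (Clcf1 and Osm, both higher), where 33.7% passed. The C57BL/6 day 3 count lay above the share over all genes, and the other 5 counts were within 2 members of it; the members were chosen with results known, so no count has a test. Without C57BL/6 day 0 replicate 2 or day 3 replicate 1, 3 members passed at day 3 in C57BL/6 nerves. Without WldS day 0 replicate 2, which leaves a high-index array as the whole WldS day 0 group, 6 passed at day 3 and 5 at day 7 in WldS nerves. At day 14 in C57BL/6 nerves 1 passed without C57BL/6 day 0 replicate 2 or either day 14 array. The median difference over the 7 members at day 3 was 0.35 in WldS nerves and 0.46 in C57BL/6 nerves, against -0.02 and 0.02 over all tested genes.

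**Figure D3:**
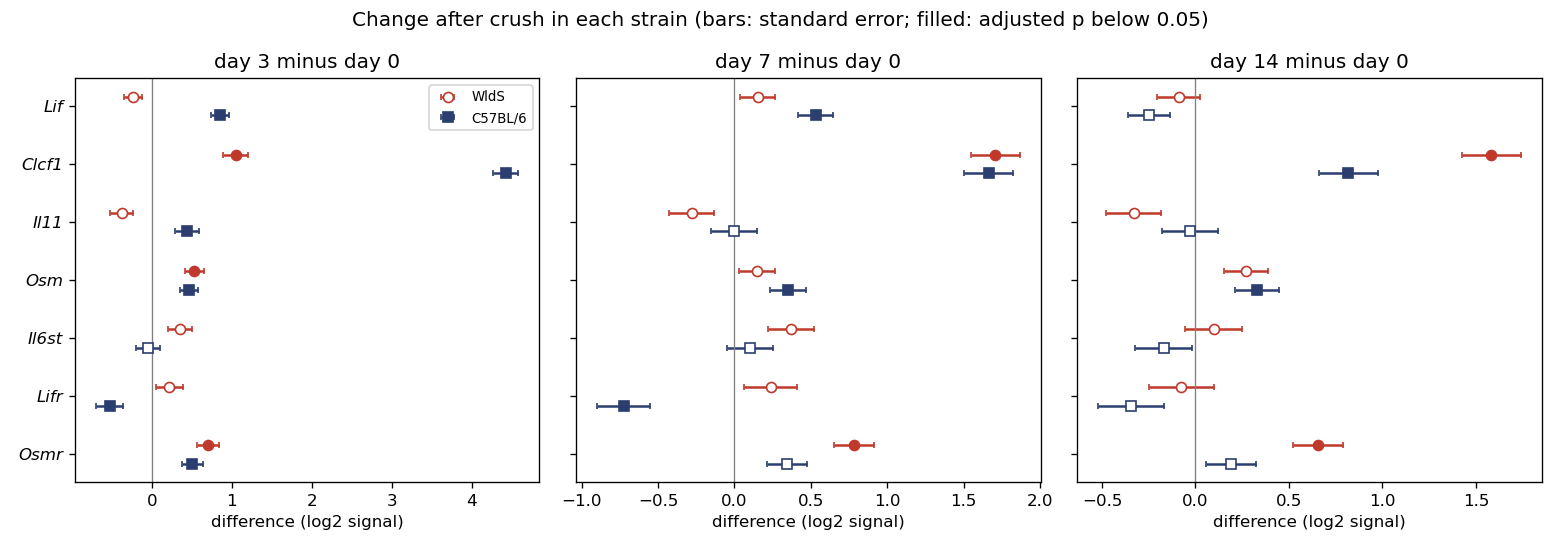
Log2 difference from day 0 (horizontal axis) of the 7 tested members at day 3, 7 and 14, with WldS circles above C57BL/6 squares; bars are standard errors, and filled points have an adjusted p below 0.05. The C57BL/6 point of Clcf1 at day 3 (4.43) lies far to the right of the WldS one (1.05); the horizontal scales differ between panels.

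The question of whether the strains differed was put at each day and as an interaction, in which the C57BL/6 change after crush was subtracted from the WldS change. At day 3, Clcf1 and Lif were lower in WldS nerves. Clcf1 had a WldS minus C57BL/6 difference of -3.56 ± 0.16, an 11.8-fold lower signal in WldS (limma, adjusted p = 3.72e-09), and Lif one of -0.98 ± 0.11 (adjusted p = 5.27e-05). These were 2 of 7 members, where 9.44% of genes passed. Neither gene's arrays overlapped between the strains at day 3, and both differences passed when any 1 array was left out. The arrays of Il11, Osm and Lifr did not overlap between the strains at day 3 either, and none of these genes passed. For Osm the difference was only -0.07 (limma, adjusted p = 0.843). The share of all genes without overlap was not counted, so with 2 arrays per group a lack of overlap is a description only. On the second Lif probe set, below the dim level, the difference was 0.03.

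At day 0, 0 of the 7 members passed between strains, where 0.227% of genes passed, and 2 passed without WldS day 0 replicate 2. At day 7, 0 passed as well, where 6.83% of genes did, and the nearest was Lifr with 0.59 ± 0.17 (limma, adjusted p = 0.0603). At day 14 Clcf1 was higher in WldS nerves, by 0.59 ± 0.16 (limma, adjusted p = 0.0414), the 1 member that passed where 6.46% of genes did. That call ended without WldS day 14 replicate 2, a high-index array (0.38, adjusted p = 0.382), without C57BL/6 day 14 replicate 1 (0.62, adjusted p = 0.16) and without its replicate 2 (0.55, adjusted p = 0.184). On the second Clcf1 probe set the day 14 difference was 1.29, and on the third it was 0.20. Over the mean of the 4 days, Clcf1 (-0.82), Lif (-0.23) and Osm (-0.19) were lower in WldS nerves, with limma adjusted p of 8.31e-06, 0.0155 and 0.0428, where 17.0% of genes passed; for Clcf1 this mean joins day 3 and day 14 differences of opposite sign. The Osm call was lost in 16 of 28 alternatives, 13 of which left out 1 array, with values of -0.22 to -0.15 over all of them.

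The change after crush itself differed between strains for 3 members at day 3, where 6.16% of genes passed. The interaction was -3.38 ± 0.22 for Clcf1 (limma, adjusted p = 5.17e-07), -1.08 ± 0.16 for Lif (adjusted p = 0.000881) and -0.82 ± 0.21 for Il11 (adjusted p = 0.0334). The Il11 interaction did not pass when any 1 of 7 of its 8 arrays was left out, WldS day 0 replicate 2 being the exception, with values of -0.88 to -0.64 and adjusted p of 0.0569 to 0.131. At day 7 the interaction passed for Lifr alone (0.96 ± 0.25, limma, adjusted p = 0.0432), where 4.11% of genes passed, and it was lost in 16 of 20 alternatives. These include leaving out any 1 of its 8 arrays other than WldS day 0 replicate 2, which gave 0.67 to 1.03 with adjusted p of 0.0804 to 0.156. At day 14, 0 members passed, where 1.58% of genes did.

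Because degeneration is delayed in WldS nerves, later WldS days were also set against earlier C57BL/6 days. Set against C57BL/6 day 3, the WldS day 7 signal of Clcf1 was lower (difference -2.90 ± 0.16, limma, adjusted p = 3.38e-08). Lif (-0.60, adjusted p = 0.00236) and Osm (-0.45, adjusted p = 0.0155) were lower as well, 3 of 7 members where 18.1% of genes passed. The Osm difference did not pass without WldS day 7 replicate 1 (-0.32, adjusted p = 0.164) or C57BL/6 day 3 replicate 1 (-0.45, adjusted p = 0.0821) or replicate 2 (-0.45, adjusted p = 0.0579). At day 14 in WldS against day 7 in C57BL/6 nerves, Lif was lower (-0.52, limma, adjusted p = 0.00922), the 1 member that passed where 10.6% of genes did, and not without WldS day 14 replicate 2 (-0.54, adjusted p = 0.0542) or C57BL/6 day 7 replicate 2 (-0.46, adjusted p = 0.107). None of the WldS days sampled held Clcf1 values as high as the 10.37 and 10.27 of C57BL/6 day 3; days between those sampled were not measured.

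Across the 16 arrays, the tested gene whose values were most like those of Clcf1 was Gdnf (Pearson r = 0.97), followed by Nkain1 (r = 0.96). For Lif they were Akap6 (r = 0.93) and Rcl1 (r = 0.87), for Osm Map11 (r = 0.92) and Gla (r = 0.91), and for Osmr Dnajc25 (r = 0.94) and Thy1 (r = 0.94). For Il11 they were Tex46 and Nptx1 (both r = 0.84), for Lifr Stim1 (r = 0.89) and Ackr1 (r = 0.83), and for Il6st Carhsp1 (r = 0.92) and Tex261 (r = 0.90). Among the members, Lif and Clcf1 were the most alike pair (r = 0.78). The C57BL/6 day 3 arrays of Clcf1 (10.37 and 10.27) stood far above its other arrays, so the correlations of Clcf1 rest largely on them. All these arrays share the same groups and days, and the correlations are descriptions without a test.

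Of the other ligands of the family, Ctf1, which encodes cardiotrophin-1, fell on every injured day in both strains, and Ebi3, a subunit of interleukin-27 and interleukin-35, rose at day 3 in both. These were the 2 tested of 6 listed. For Ctf1 the differences were -0.60, -0.45 and -0.61 in WldS nerves at day 3, 7 and 14, against -0.78, -0.64 and -1.0 in C57BL/6 nerves. Ebi3 had a day 3 difference of 0.83 in WldS and 0.63 in C57BL/6 nerves. Of the other receptors, 4 of 5 were tested. Il6ra, the interleukin-6 binding subunit, rose at day 3 by 0.71 in WldS and 0.85 in C57BL/6 nerves. Cntfr, the Cntf binding subunit, fell on every day, with differences of -0.52, -0.58 and -0.56 in WldS nerves, against -0.47, -0.58 and -0.49 in C57BL/6 nerves. Il27ra and Il31ra did not pass against day 0. No other ligand or receptor passed between the strains at day 3, 7 or 14, or in the interaction. Over the mean of the 4 days, 1 of the 4 other receptors tested was higher in WldS nerves, where 17.0% of genes passed.

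Among the signal transducers, the kinase gene Jak1 and Stat3 each rose in both strains on at least 1 day. The adaptor gene Gab1 fell in both strains. At day 3, 5 of 11 transducers rose and 2 fell in WldS nerves, and 5 rose and 1 fell in C57BL/6 nerves, where 36.0% of all genes passed in WldS and 41.0% in C57BL/6 nerves. Stat3 differed from day 0 by 1.11, 1.07 and 0.87 at day 3, 7 and 14 in WldS nerves, all of which passed. In C57BL/6 nerves the Stat3 differences were 0.58, 0.70 and 0.49, of which that at day 7 passed. Jak1 rose at day 3 by 1.96 in WldS and 0.94 in C57BL/6 nerves. Gab1 differed at day 3 by -0.54 in WldS and -1.55 in C57BL/6 nerves, and its interaction passed (1.01, limma, adjusted p = 0.0215). Between the strains, 1 of 11 transducers was higher in WldS nerves at day 3, where 9.44% of genes passed. At day 14, 3 were lower (6.46% of genes), and over the mean of the 4 days 2 were lower (17.0%). With the 3′/5′ index as a covariate, 2 transducers rose and 1 fell in WldS nerves at day 3.

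Among the inhibitors of Jak and Stat signalling, Socs2, Socs3, Socs6 and Ptpn6 rose at day 3 in both strains. At day 3, 6 of 12 rose and 1 (Socs7, outside the rule for named genes) fell in WldS nerves, and 5 rose and 0 fell in C57BL/6 nerves; the C57BL/6 count is close to the 41.0% of all genes that passed, and 36.0% passed in WldS nerves. Socs3, the main feedback inhibitor of gp130, rose by 1.17, 0.94 and 1.04 at day 3, 7 and 14 in WldS nerves. In C57BL/6 nerves its differences were 1.70, 0.84 and 0.45, the last of which did not pass. At day 14 Socs3 was higher in WldS than in C57BL/6 nerves by 0.88 (limma, adjusted p = 0.021), while its interaction did not pass on any day. Another inhibitor, 1 of the 12, was lower in WldS nerves at day 14, where 6.46% of genes passed. In the day 3 interaction 1 inhibitor was higher, where 6.16% of genes passed. Socs2 rose at day 3 by 0.92 in WldS and 1.27 in C57BL/6 nerves, and Socs6 by 1.83 in WldS and 0.94 in C57BL/6 nerves. Ptpn6, a phosphatase of blood cells, rose by 0.92 in WldS and 0.76 in C57BL/6 nerves.

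Most genes listed as responding to Stat3 rose at day 3 in both strains. Of 24 such genes, 19 rose, 1 (Bcl2l1) fell and 4 did not pass in WldS nerves, where 36.0% of all genes passed, and 17 rose, 0 fell and 7 did not pass in C57BL/6 nerves, where 41.0% passed. Their median difference was 1.11 in WldS and 0.97 in C57BL/6 nerves, against -0.02 and 0.02 over all genes. At day 7, 17 rose and 1 fell in WldS nerves, and 15 rose and 2 fell in C57BL/6 nerves. The shares of all genes that passed were 35.2% and 36.1%. At day 14, 12 rose and 1 fell in WldS nerves, and 11 rose and 2 fell in C57BL/6 nerves. The shares over all genes were then 21.3% and 33.7%. The list holds Osmr, Socs3 and Stat3, which were also described above, and many of its genes respond to other signals too.

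The day 3 rises on this list were led by the same 4 genes in both strains. Timp1, an inhibitor of matrix metalloproteinases, rose by 4.17 in WldS and 5.09 in C57BL/6 nerves. Saa3, an acute phase protein, rose by 3.79 in WldS and 4.57 in C57BL/6 nerves. Ccl2, a chemokine that attracts monocytes, rose by 2.90 in WldS and 3.13 in C57BL/6 nerves, and Fos, a subunit of AP-1, by 2.12 in WldS and 2.92 in C57BL/6 nerves. In the day 3 interaction 3 of the 24 were lower (Timp1 -0.93, Fos -0.80 and Bcl2l1 -0.74) and 1 was higher (Lbp 0.93), with limma adjusted p between 0.00672 and 0.047. Of all genes, 6.16% passed in that interaction. Between the strains at day 3, 5 of the 24 were lower and 1 was higher in WldS nerves, where 9.44% of genes passed. At day 7, 2 were lower and 1 was higher (6.83% of genes), and at day 14, 1 was lower and 4 were higher (6.46%).

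**Figure D4:**
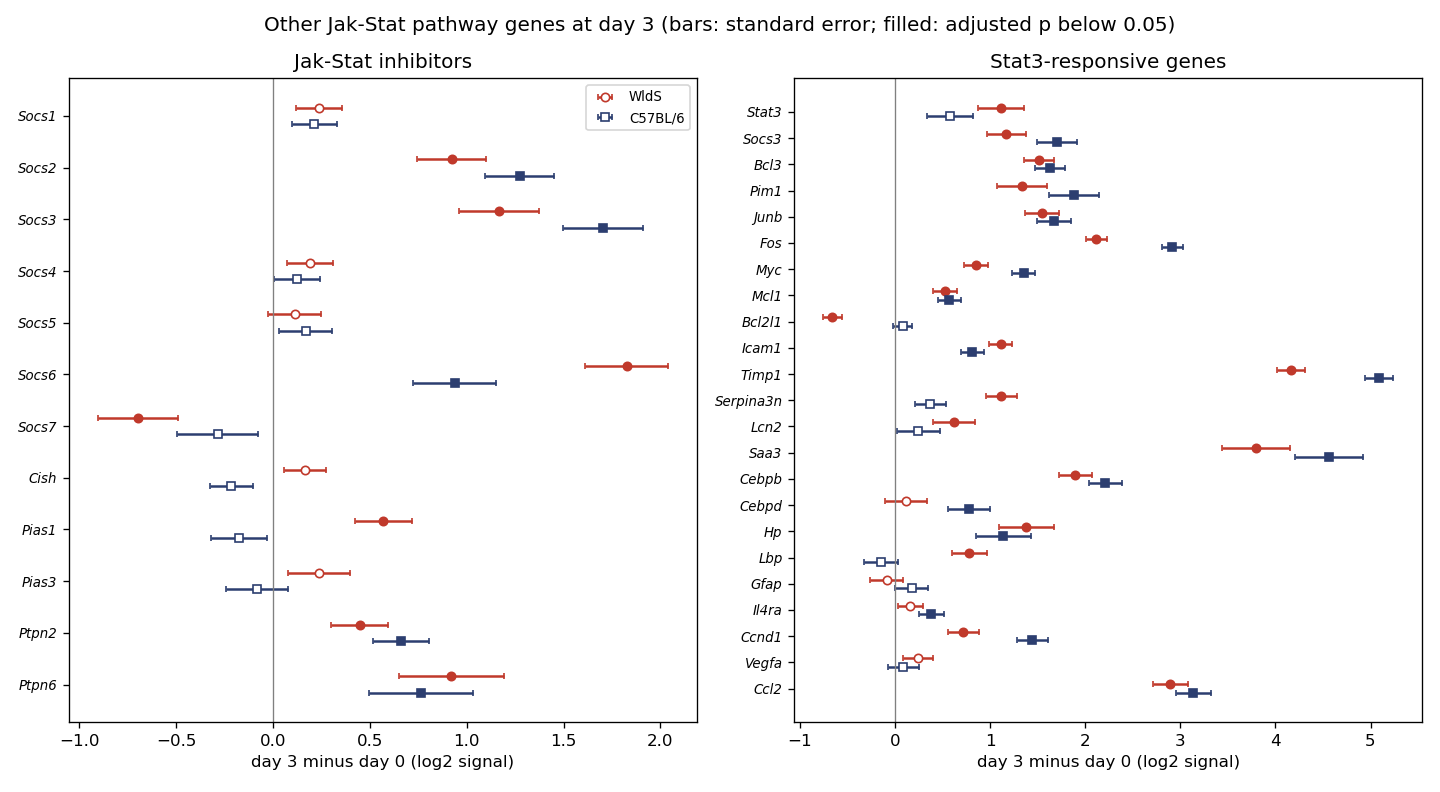
Log2 difference between day 3 and day 0 (horizontal axis) for the 12 Jak and Stat inhibitors (left) and 23 Stat3-responsive genes other than Osmr (right), with WldS circles above C57BL/6 squares; bars are standard errors, and filled points have an adjusted p below 0.05. Timp1 lies farthest to the right in both strains (4.17 in WldS, 5.09 in C57BL/6), and Bcl2l1 is the 1 Stat3-responsive gene that fell in WldS nerves.

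Some markers of other cell types moved on the same days. At day 3, 36.0% of all tested genes passed in WldS nerves and 41.0% in C57BL/6 nerves. These shares were 35.2% and 36.1% at day 7, and 21.3% and 33.7% at day 14. Between the strains at day 3, 9.44% of genes passed. Of 8 macrophage markers, 7 rose and 0 fell at day 3 in each strain, and their summed signal (log2 of the sum) ranged over 14.53 to 14.69 in WldS nerves at day 3 against 13.26 to 13.31 at day 0, and over 14.35 to 14.43 in C57BL/6 nerves at day 3 against 13.39 to 13.46 at day 0. Of 5 neutrophil markers, 2 rose and 0 fell at day 3 in each strain, with sums of 8.96 to 9.49 in WldS and 8.71 to 8.97 in C57BL/6 nerves at day 3. Of 5 markers of myelinating Schwann cells, 4 fell in WldS nerves at day 3 and all 5 in C57BL/6 nerves. Their sum at day 3 was 15.13 to 15.16 in WldS nerves against 15.53 to 15.63 at day 0, and 13.58 to 13.64 in C57BL/6 nerves against 15.58 to 15.63 at day 0. Of 7 fibroblast and perineurial markers, 0 rose and 2 fell in WldS nerves at day 3, and 1 rose and 5 fell in C57BL/6 nerves. Of 5 Schwann lineage markers, 0 rose and 4 fell in WldS nerves at day 3, with sums of 12.59 to 12.62 at day 3 against 13.39 to 13.63 at day 0, and 1 rose and 3 fell in C57BL/6 nerves, with sums of 13.31 to 13.53 against 13.68 at day 0. Of 5 endothelial markers, 3 rose at day 3 and 4 at day 7 in WldS nerves, with sums of 11.19 to 11.29 at day 3 and 11.36 to 11.69 at day 7 against 10.58 to 10.83 at day 0. The C57BL/6 endothelial counts were 0 at day 3 and 1 at day 7. Their C57BL/6 sums were 11.15 to 11.16 at day 0, 10.98 to 11.32 at day 3 and 10.99 to 11.09 at day 7. Between the strains, 0 endothelial markers passed at day 3, and 1 was higher in WldS nerves at day 7, where 6.83% of genes passed. Of 5 mast cell markers, 0 passed at day 3 in WldS nerves and 4 fell in C57BL/6 nerves, and 4 were higher in WldS than in C57BL/6 nerves at day 3. Their sum at day 3 was 10.85 to 11.16 in WldS nerves against 10.57 to 11.19 at day 0, and 9.38 to 9.77 in C57BL/6 nerves against 10.27 to 10.82 at day 0. At day 7 and day 14, 7 and 2 macrophage markers rose in WldS nerves, and 4 and 4 in C57BL/6 nerves. Those that fell were 1 and 1 in WldS nerves, and 1 and 2 in C57BL/6 nerves. Of the myelinating Schwann cell markers, 2 and 1 fell on these days in WldS nerves, and 5 and 1 in C57BL/6 nerves. The neutrophil counts and the WldS fibroblast count at day 3 were near or below the shares over all genes. So were the myelinating Schwann cell counts in WldS nerves at day 7 and in both strains at day 14. The part of these cell types in the family's values was not tested.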

How the data were processed

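Total RNA of pooled sciatic nerve stumps was hybridised to 16 Affymetrix arrays. The authors deposited log2 signals, 1 per probe set, which were taken as normalized since the array medians are nearly equal. The submitters' processing notes list GCOS 1.4, RMA, limma and Partek but give none of them a role. Of 45101 probe sets, 34945 had 1 gene symbol in the platform's probe table and were used. Genes with a mean below the 30th percentile (log2 5.37) were left out of the tests, and Il6 was tested with no filter alone.

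Group means were fitted with limma 3.58.1 (R 4.3.3) to all 16 arrays (8 residual and 5.82 prior degrees of freedom), with Benjamini-Hochberg adjustment over 14545 genes within each of 20 contrasts and a threshold of 0.05. The fit was tested on simulated data. Alternatives varied the filter, probe set, normalization, variance model, arrays fitted and replicate block. Same-numbered arrays did not deviate together (r of -0.58 to 0.19 over 28 pairs of groups), so the numbers were not taken as pairs. Precision is limited by the number of arrays, since arrays have no read depth.

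The text names every member, up to 4 called genes of a list with the largest change, Nmnat1 and the 2 genes most like a member; Socs7, Lbp and Bcl2l1 were named after their values were seen. The members and lists were chosen with earlier results of these data known. Some genes of the lists are not analysed here.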

Additional observations from a re-analysis of the deposited data

Results flagged for a closer look

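The change after crush differed between the strains for 4 members, by limma's test of the difference itself (the C57BL/6 change after crush subtracted from the WldS change, log2 scale). At day 3 this difference was -3.38 for Clcf1 (adjusted p = 5.17e-07), -1.08 for Lif (adjusted p = 0.000881) and -0.82 for Il11 (adjusted p = 0.0334). At day 7 it was 0.96 for Lifr (adjusted p = 0.0432). The Clcf1 difference passed in all alternatives run. The Lif one was lost on its second probe set (-0.06, limma, adjusted p = 0.897), which lay below the dim level, and passed in the others. The Il11 one was lost in 10 of 19 and the Lifr one in 16 of 20.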

How the results depend on the processing

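The day 3 calls of Clcf1 in both strains, between the strains and in the interaction held in every alternative. Counts of members that passed moved by over 1.5 times as follows. With the mean of all probe sets, 6 passed in WldS nerves at day 3 (3 as reported) and 1 at day 14 (2 as reported); with the second probe set, 1 passed in WldS nerves at day 14 and 1 between strains at day 3 (2 as reported). With the replicate block, 1 passed in C57BL/6 nerves at day 14 (2 as reported), 0 between strains at day 14 (1 as reported) and 0 in the day 7 interaction (1 as reported); the block moved no other count by over 1.5 times. With only the groups compared in the fit, 1 passed at day 14 in WldS and 1 in C57BL/6 nerves, 1 between strains at day 7 (0 as reported), 0 at day 14 and 0 in the day 7 interaction. Median centring and quantile normalization each left 1 in C57BL/6 nerves at day 14. Between strains at day 7, quantile normalization, leaving out both high-index arrays and the index as a covariate each gave 1; the last 2 gave 0 at day 14, and the covariate gave 1 in the day 14 interaction (0 as reported). The day 7 interaction also had 0 with no filter, the mean of all probe sets, the second probe set, quantile normalization, cyclic loess, without the high-index arrays and with the covariate. With 1 array left out, counts ranged from 3 to 6 in WldS nerves at day 3, 2 to 5 at day 7 and 2 to 3 at day 14. In C57BL/6 nerves they ranged from 3 to 5 at day 3, 3 to 5 at day 7 and 1 to 2 at day 14. Between successive days, the count in C57BL/6 nerves at day 14 minus day 7 was 0 on the second probe set (2 as reported). In WldS nerves at day 7 minus day 3 (1 as reported) it was 0 on the second probe set and with only the groups compared, 2 with the mean of probe sets and 3 with the covariate; in C57BL/6 nerves (1 as reported) it was 2 or 3 in 8 alternatives. For WldS day 14 minus C57BL/6 day 7 it was 2 with the covariate (1 as reported). With 1 array left out, the first of these 4 counts ranged from 1 to 2, the WldS one from 0 to 1 and the last from 0 to 2, and the C57BL/6 day 7 minus day 3 count stayed at 1. Between strains they ranged from 0 to 2 at day 0 and 0 to 1 at day 14, and in the day 7 interaction from 0 to 1. On the second probe set the sign turned for Lif in C57BL/6 nerves at day 3 (-0.056), day 7 (-0.033) and day 14 minus day 7 (0.031), in WldS minus C57BL/6 at day 3 (0.029) and over the 4 days (0.037), in WldS day 7 minus C57BL/6 day 3 (0.047) and in WldS day 14 minus C57BL/6 day 7 (0.034), and for Il6st in C57BL/6 nerves at day 3 (0.83). With the mean of probe sets it turned for Lifr in C57BL/6 nerves at day 3 (0.073). The second Lif probe set lay below the dim level; the cause of the other changes was not tested. Over all genes, the number called with only the groups compared was 2264 against 5122 in WldS nerves at day 7 and 1097 against 3094 at day 14, and without WldS day 0 replicate 2 it was 1791 against 33 between strains at day 0. With 2 arrays per group, dim signals such as Il6 were at the limit of what could be measured.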

Other observations

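The probe set that the platform's table lists with Cntf, Zfp91 and Gm44505 together differed from day 0 by -4.63, -4.21 and -2.16 in C57BL/6 nerves at day 3, 7 and 14, larger in size than any tested member, and no level of Cntf can be taken from it. In WldS nerves its differences were -0.42, -0.34 and -0.72. Its mean log2 signal in WldS nerves was 12.61 at day 0, 12.19 at day 3, 12.27 at day 7 and 11.89 at day 14. In C57BL/6 nerves it was 13.12 at day 0, 8.49 at day 3, 8.91 at day 7 and 10.96 at day 14. Both C57BL/6 day 3 arrays (8.42 and 8.57) were below every WldS array. The 4 probe sets listed with Zfp91 alone differed from day 0 in C57BL/6 nerves at day 3 by 0.03, -0.33, -0.64 and -0.33. Which of the 3 listed genes the shared probe set reads was not tested, and it entered no test.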
